A study of Homo sapiens with 31 samples.

Results

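The glutathione S-transferases (GSTs) described here were 10 of the 17314 genes read in xenografts of PC3, a human cell line from a prostate carcinoma. They were 5 genes of the mu class (GSTM1, GSTM2, GSTM3, GSTM4 and GSTM5), 2 of the alpha class (GSTA1 and GSTA4), the pi class gene GSTP1, the theta class gene GSTT1 and the membrane-bound transferase MGST1. Each was read by its 1 probe set on the array that carried its symbol alone, and all 10 were found. The named lines were unpassaged PC3 (wt) and the clones A3, D3 and D4, re-isolated after passage in vivo, and the labels describe wt and A3 as sensitive and D3 and D4 as resistant to cyclophosphamide (CPA). Every line was implanted again and grown to a mean volume of 30 mm3, after which 1 group per line received CPA at 120 mg/kg by the intraperitoneal route and 1 group was left as the control. Each of the 8 groups held 4 arrays, except untreated A3 with 3. Each clone is a single isolate, so a difference between lines cannot be told apart from a difference between clones, and it is not stated whether the arrays of a group came from separate animals. The p-values then measure the spread between these arrays, which may be technical. RNA of the host can be part of each tumour sample.

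GSTs join the thiol of glutathione to electrophilic compounds, which makes them more soluble and prepares them for export from the cell. The cytosolic enzymes work as dimers within a class, and MGST1 sits in the endoplasmic reticulum and the outer mitochondrial membrane. CPA is a prodrug whose active products alkylate DNA, and these products can also be bound by glutathione, with GSTA1 and GSTP1 among the enzymes known to speed that reaction. In prostate carcinoma GSTP1 is known for the frequent silencing of its promoter by methylation, although PC3 is a line that expresses it.

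The comparison with the most members called was that of the clones D4 and A3. In untreated tumours 6 of the 10 members were lower in D4 (GSTM2, GSTM3, GSTM4, GSTA4, GSTP1 and GSTT1) and none was higher, where 3.77% of all genes were called, 2.02% lower and 1.75% higher. Their folds ran from 1.32 for GSTA4 to 1.58 for GSTM3. The count depends on few arrays: it was 1 without A3 replicate 4, 2 without A3 replicate 1, 3 without D4 replicate 1 or 5, and 0 with only these groups in the fit. After CPA, on other arrays, 3 of the 6 were again lower in D4 than in A3 (GSTM3, GSTM4 and GSTT1), where 12.4% of all genes were called and 4.97% were lower. GSTT1 was the only member called lower in each of the 8 comparisons of D3 or D4 with A3 or wt, by 1.22-fold to 1.40-fold. With the replicate number as a block, its call for untreated D3 against wt was lost (limma adjusted p 0.108). Its other untreated calls were lost with only the groups compared in the fit, and both treated calls against wt without certain single arrays. Both treated calls against A3 stayed when any single array was left out. No member was called for CPA against control in any line (limma). Called means a limma p-value below 0.05 after Benjamini-Hochberg adjustment over all 17314 genes.

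**Figure D1:**
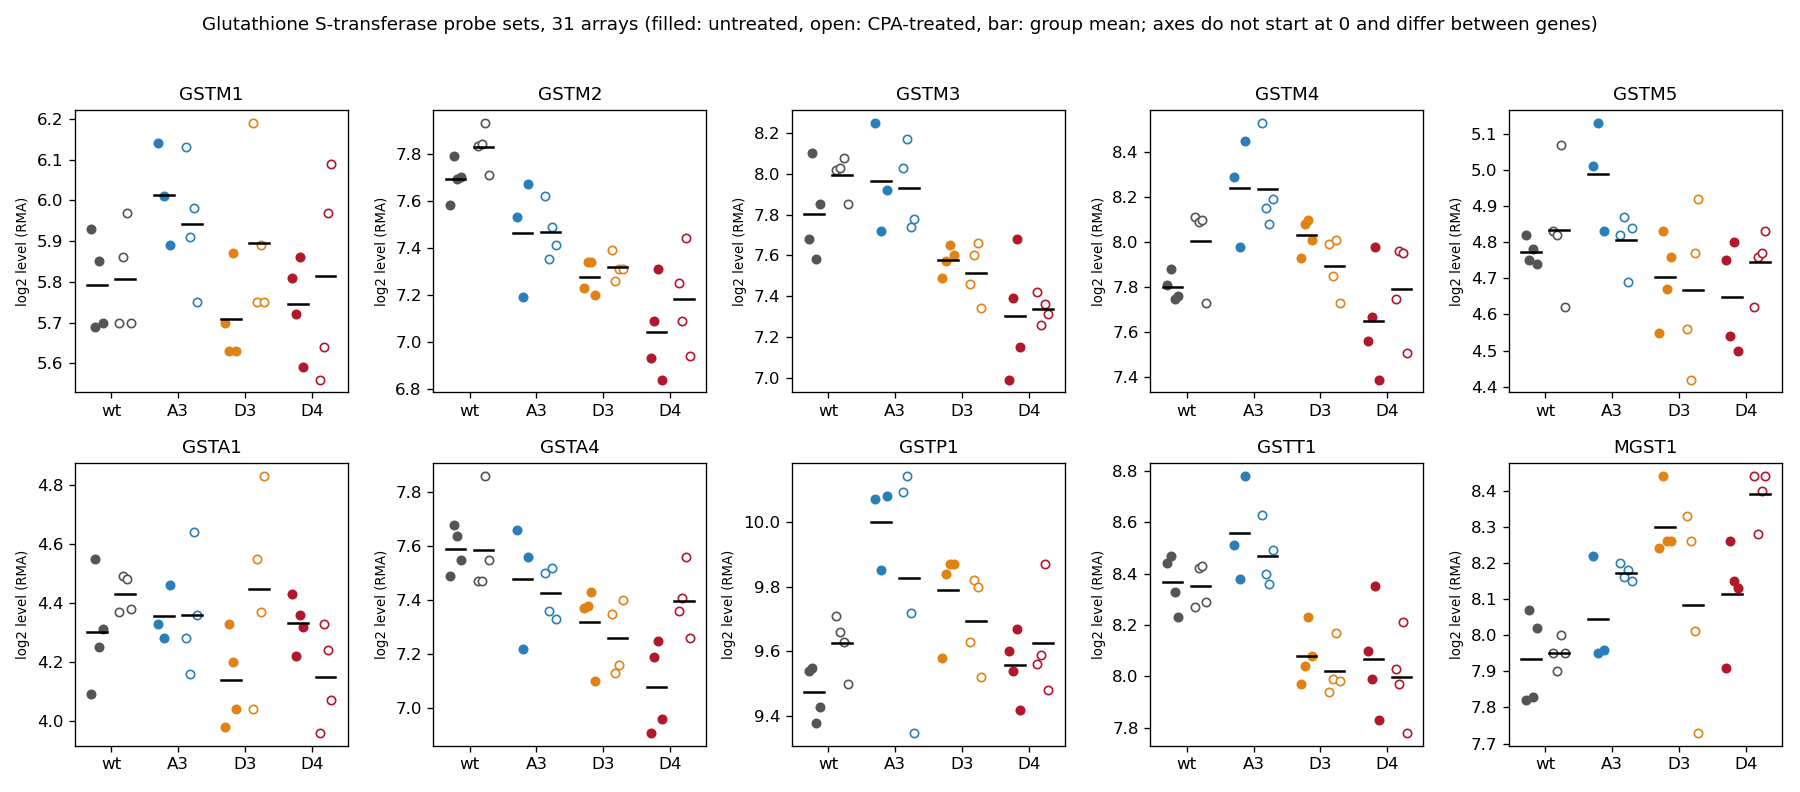
Log2 level (RMA) of each of the 10 transferases on the 31 arrays, by line; filled points are untreated, open points CPA-treated, and bars are group means. GSTT1 lies lower in D3 and D4 than in wt and A3, GSTM2 is highest in wt, and GSTP1 and GSTM4 are highest in A3; each panel has its own axis, which does not start at 0.

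Promoter sequences are shown for 5 of the 6 members that were lower in untreated D4 than in A3. The RefSeq promoter table for GRCh38.p14 held 9 of the 10 members, and the 250 bases before each start are printed here, 5′ to 3′ along the gene. Capitals mark matches on either strand to the core of the antioxidant response element that NRF2 binds (TGACNNNGC), to an AP-1 site (TGANTCA), to a GC box (GGGCGG, a site of SP1) and to a CCAAT box (CCAAT). GSTM4 is at chr1:109655849-109656098 (plus strand), GSTM2 at chr1:109667807-109668056 (plus strand), GSTM3 at chr1:109741039-109741288 (minus strand), GSTA4 at chr6:52995285-52995534 (minus strand) and GSTP1 at chr11:67583562-67583811 (plus strand).
GSTM4: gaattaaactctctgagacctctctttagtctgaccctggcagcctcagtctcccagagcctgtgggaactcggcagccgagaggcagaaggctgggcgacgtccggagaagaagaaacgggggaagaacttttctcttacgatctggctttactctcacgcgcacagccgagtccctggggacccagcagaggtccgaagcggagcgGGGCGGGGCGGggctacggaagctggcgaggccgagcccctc
GSTM2: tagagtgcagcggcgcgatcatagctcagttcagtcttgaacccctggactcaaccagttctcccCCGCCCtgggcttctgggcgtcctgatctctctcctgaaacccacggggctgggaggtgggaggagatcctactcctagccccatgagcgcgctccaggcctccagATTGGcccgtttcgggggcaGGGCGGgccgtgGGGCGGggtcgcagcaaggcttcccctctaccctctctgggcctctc
GSTM3: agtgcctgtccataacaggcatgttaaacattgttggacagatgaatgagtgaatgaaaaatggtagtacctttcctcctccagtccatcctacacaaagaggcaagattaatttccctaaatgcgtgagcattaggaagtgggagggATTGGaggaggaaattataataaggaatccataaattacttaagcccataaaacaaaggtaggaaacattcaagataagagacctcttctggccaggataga
GSTA4: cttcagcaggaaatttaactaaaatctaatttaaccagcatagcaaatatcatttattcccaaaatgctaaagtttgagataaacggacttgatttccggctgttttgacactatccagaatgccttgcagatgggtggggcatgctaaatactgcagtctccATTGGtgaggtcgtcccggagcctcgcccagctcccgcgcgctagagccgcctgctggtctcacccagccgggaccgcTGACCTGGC
GSTP1: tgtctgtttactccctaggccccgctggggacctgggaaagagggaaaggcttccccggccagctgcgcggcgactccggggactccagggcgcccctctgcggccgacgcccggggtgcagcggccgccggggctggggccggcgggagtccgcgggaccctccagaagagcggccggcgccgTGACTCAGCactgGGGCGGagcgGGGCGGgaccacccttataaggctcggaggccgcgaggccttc
No searched motif was present in all 3 mu class promoters. GSTM4 held 2 GC boxes, which overlap by a base, GSTM2 held 3 GC boxes and 1 CCAAT box, and GSTM3 held 1 CCAAT box and no GC box. GSTA4 and GSTP1 each held 1 antioxidant response element core, 9 and 66 bases before the start, and in GSTP1 an AP-1 site begins at the same base and overlaps it. Among the 35116 promoters of the table, over the same 250 bases, 10.9% held the antioxidant response element core, 6.6% an AP-1 site, 42.6% a GC box and 32.0% a CCAAT box. A match is a run of letters in this window and not a site shown to be bound.

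The 7 members GSTM2, GSTM3, GSTM4, GSTA4, GSTP1, GSTT1 and MGST1 were read clearly above background. The table held no detection calls, so olfactory receptor genes, which tumours barely transcribe, stood in for background: the mean levels of 284 such genes had a 95th percentile of 5.89. The 7 members had group means of 7.04 to 10.0. GSTA1 (4.14 to 4.45) and GSTM5 (4.65 to 4.99) lay under that mark in all 8 groups, and GSTM1 (5.71 to 6.01) in 5 of 8. For these 3 genes the absence of a call says little, and no comparison of lines or treatments called any of them. The mu class genes are close relatives, and how far a probe set reads its neighbour's transcript was not tested.

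Whole-series values set the frame. Arrays of 1 group had correlations of 0.985 to 0.997 over genes. The median residual SD over genes was 0.148 on the log2 scale, and the number of arrays limits the precision. Of the 6 listed markers of the carcinoma cells 5 lay above every olfactory receptor gene (KRT8, KRT18, KRT19, EPCAM and VIM), and CDH1 had a mean of 6.27. The prostate secretory genes KLK3 and KLK2 had means of 5.93 and 5.85, near the background mark. Markers of other cell types were partly at background. The probe sets are those of human genes, and how far they read RNA of the host was not tested. These levels therefore do not measure host-cell content, and which cells a transcript came from was not tested. Decorin (DCN, 3.27), PTPRC (3.18), a marker of all leukocytes, and albumin (ALB, 3.76) lay below the median of the olfactory receptor genes, 4.57, whereas COL1A1 (9.93) and CD68 (8.66) lay above all of them. In bulk tumours fewer cells of a type and less RNA per cell cannot be told apart.

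GSTT1, a theta class enzyme that acts on small halogenated compounds and is missing from people who lack the gene, was low in both resistant clones. Untreated, it read 8.44, 8.47, 8.33 and 8.23 in wt, 8.51, 8.38 and 8.78 in A3, 7.97, 8.04, 8.23 and 8.08 in D3, and 8.10, 7.99, 8.35 and 7.83 in D4. Every D3 array lay under every sensitive array, the closest pair being 8.23 in both D3 and wt after rounding, and the one D4 array at 8.35 reached into the wt range. After CPA it read 8.27, 8.42, 8.43 and 8.29 in wt, 8.63, 8.40, 8.36 and 8.49 in A3, 7.94, 7.99, 8.17 and 7.98 in D3, and 8.03, 7.97, 8.21 and 7.78 in D4. Here no resistant array reached any sensitive one.

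Against A3, GSTT1 was 1.39-fold lower in untreated D3 (log2 difference -0.47 ± 0.11 SE, adjusted p 0.0149) and 1.40-fold lower in untreated D4 (-0.49 ± 0.11 SE, adjusted p 0.00881). After CPA the differences were -0.45 ± 0.10 SE in D3 (adjusted p 0.00708) and -0.47 ± 0.10 SE in D4 (adjusted p 0.00235). Against wt they were smaller, at -0.29 in D3 and -0.30 in D4 untreated (adjusted p 0.0473 and 0.0336) and -0.33 and -0.36 after CPA (0.0237 and 0.0156). All of these adjusted p-values are from limma. The clones D3 and D4 share each reference group, so their values are not independent of each other. Between D4 and D3 the difference was -0.02 in both conditions, with 95% intervals of -0.22 to 0.19 untreated and -0.23 to 0.19 after CPA, and A3 was not called different from wt (0.19 untreated, adjusted p 0.281). The untreated call for D3 against wt was lost with the replicate number as a block (-0.22, limma adjusted p 0.108), with each array centred on its median (0.0503) and without any 1 of wt replicates 1, 2 and 3 or D3 replicates 1, 2 and 5 (0.0737 to 0.13). Fits of only the groups compared ended the other 3 untreated calls, and so did leaving out A3 replicate 4 (both comparisons with A3), D3 replicate 1 (D3 against A3), or wt replicate 1, 2 or 3 or D4 replicate 2 or 5 (D4 against wt). Of the treated calls, D3 against wt was lost without wt replicate 2 or 3 or D3 replicate 2, 3 or 5, and D4 against wt without wt replicate 3 or D4 replicate 5, while both differences from A3 stayed called when any single array was left out.

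**Figure D2:**
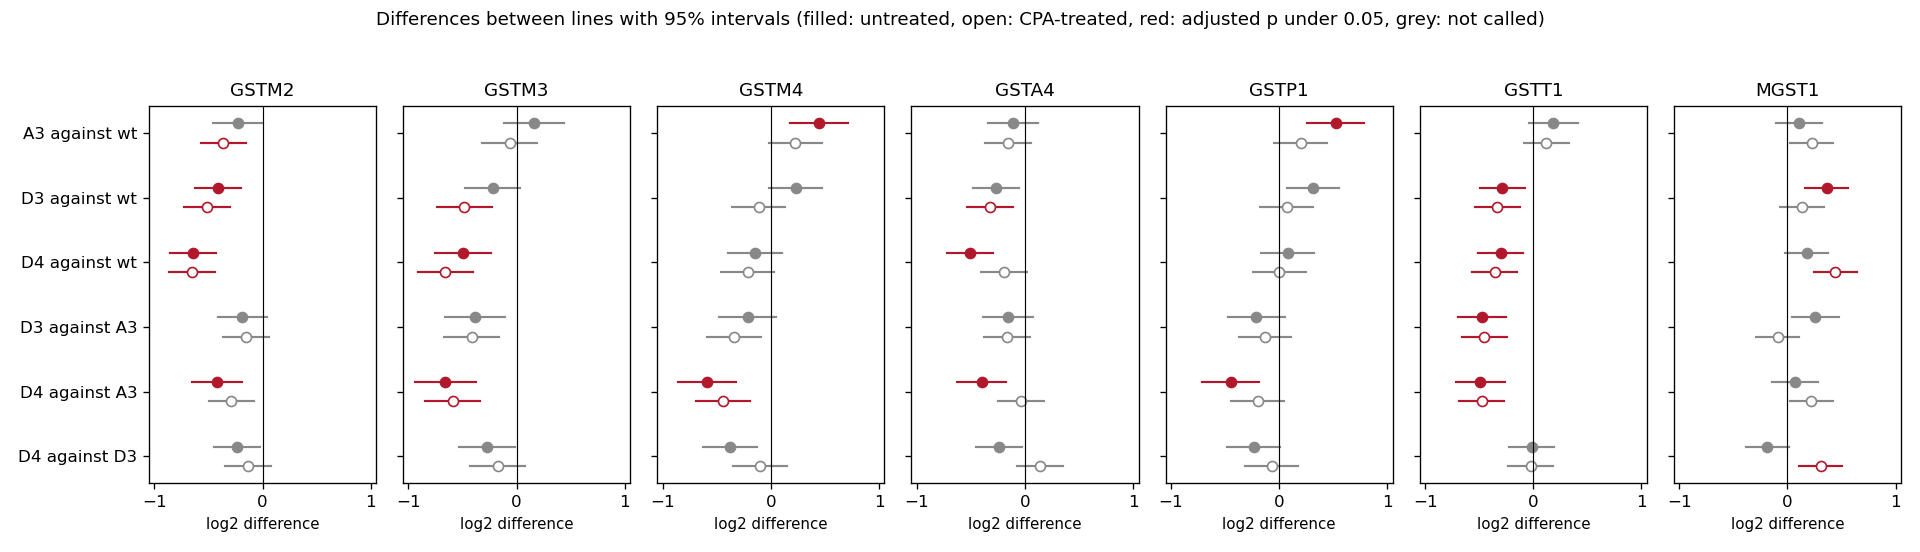
Log2 differences between lines for the 7 transferases above background, with 95% intervals that are not adjusted for the number of tests; filled points are untreated and open points CPA-treated, red where called and grey where not. GSTT1, GSTM3, GSTM2 and GSTA4 lie to the left of 0 in D3 and D4 in every comparison with wt or A3, of which only those of GSTT1 were all called. MGST1 lies to the right of 0 against wt.

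GSTM2, GSTM3 and GSTM4 lie side by side on chromosome 1 with GSTM1 and GSTM5, GSTM3 on the opposite strand from the others, and their promoters are printed above. All 3 enzymes conjugate electrophiles in the cytosol, and GSTM3 is known from brain and testis. All 3 had their lowest group mean in untreated D4.

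GSTM2 was highest in wt. Untreated, it read 7.58, 7.79, 7.69 and 7.70 in wt, 7.53, 7.19 and 7.67 in A3, 7.23, 7.34, 7.34 and 7.20 in D3, and 6.93, 7.09, 7.31 and 6.84 in D4. All D3 and D4 arrays lay under all wt arrays, while the A3 arrays spread over the ranges of wt and D3. It was 1.33-fold lower than wt in D3 (-0.41 ± 0.10 SE, adjusted p 0.0048) and 1.56-fold lower in D4 (-0.65 ± 0.10 SE, adjusted p 3.06e-05), both from limma. After CPA it was lower than wt in all 3 clones, by -0.36 in A3, -0.51 in D3 and -0.65 in D4 (limma adjusted p 0.0144, 0.000812 and 3.88e-05), and no array of a clone reached the lowest wt array, 7.71. The A3 call after CPA was lost without wt replicate 3 (adjusted p 0.0571) or A3 replicate 2 (0.0566). Against A3 it was lower in untreated D4 (-0.42 ± 0.11 SE, adjusted p 0.0273) and not called after CPA (-0.29, adjusted p 0.0639). The untreated D4 call against A3 was lost with only those groups in the fit (limma adjusted p 0.369). It was also lost without A3 replicate 1 or 4 or D4 replicate 1 or 5.

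GSTM3 was highest in wt and A3. Untreated, it read 7.68, 8.10, 7.58 and 7.85 in wt, 8.25, 7.72 and 7.92 in A3, 7.49, 7.57, 7.65 and 7.60 in D3, and 6.99, 7.39, 7.68 and 7.15 in D4. The D4 arrays were the most scattered, and the highest of them overlapped wt but not A3. In D4 it was 1.58-fold lower than in A3 (-0.66 ± 0.14 SE, limma adjusted p 0.0039) and 1.41-fold lower than in wt (-0.50 ± 0.13 SE, limma adjusted p 0.00476). With only the groups compared in the fit both calls were lost (limma adjusted p 0.181 against A3 and 0.0536 against wt). The call against A3 was also lost without A3 replicate 1. After CPA the D4 arrays drew together at 7.42, 7.26, 7.36 and 7.31, all below the A3 arrays at 8.03, 8.17, 7.74 and 7.78, with a difference of -0.59 ± 0.13 SE (limma adjusted p 0.00211). Against wt after CPA it was lower in D3 (-0.48, adjusted p 0.00829) and in D4 (-0.66, adjusted p 0.00037). The difference of D3 from A3 was not called in either condition (-0.42 after CPA, adjusted p 0.0524).

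GSTM4 was highest in A3. Untreated, it read 7.81, 7.88, 7.75 and 7.76 in wt, 8.29, 7.98 and 8.45 in A3, 7.93, 8.08, 8.10 and 8.01 in D3, and 7.56, 7.67, 7.98 and 7.39 in D4. All A3 arrays lay above all wt arrays, by 1.36-fold on average (0.44 ± 0.13 SE, limma adjusted p 0.0149), and the mean of D3 lay between theirs. That call was lost without A3 replicate 1 (0.0538) or A3 replicate 4 (0.122). In D4 it was 1.51-fold lower than in A3 (-0.59 ± 0.13 SE, limma adjusted p 0.00739) and after CPA 1.36-fold lower (-0.44 ± 0.12 SE, adjusted p 0.0159), a call lost without A3 replicate 1 (0.0902) or D4 replicate 5 (0.0819). The untreated D4 call against A3 was lost with only those groups in the fit (limma adjusted p 0.182) and without A3 replicate 4. Neither resistant clone was called different from wt, with differences of 0.23 in D3 and -0.15 in D4 untreated.

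GSTA4, which conjugates the lipid peroxidation product hydroxynonenal, had its lowest mean in untreated D4. There it read 6.91, 7.19, 7.25 and 6.96, against 7.49, 7.68, 7.64 and 7.55 in wt, 7.66, 7.22 and 7.56 in A3, and 7.37, 7.38, 7.43 and 7.10 in D3. All 4 D4 arrays lay under the wt arrays, and the highest D4 array passed the lowest A3 array. It was 1.43-fold lower than in wt (-0.51 ± 0.10 SE, limma adjusted p 0.000562) and 1.32-fold lower than in A3 (-0.40 ± 0.11 SE, adjusted p 0.0392). The call against A3 was lost under 3 of 6 other settings (limma adjusted p up to 0.352) and without A3 replicate 1 or 4 or D4 replicate 1 or 5 (0.122 to 0.248). After CPA the D4 arrays read 7.36, 7.41, 7.56 and 7.26, and neither difference was called (-0.19 from wt, adjusted p 0.262, and -0.03 from A3, adjusted p 0.848). In D3 it was lower than wt after CPA (-0.33 ± 0.10 SE, limma adjusted p 0.0298), a call lost without wt replicate 3 or D3 replicate 3 or 4.

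GSTP1, the pi class enzyme, was highest in untreated A3. It read 10.07, 9.85 and 10.08 there, against 9.54, 9.55, 9.38 and 9.43 in wt, 9.58, 9.84, 9.87 and 9.87 in D3, and 9.60, 9.54, 9.67 and 9.42 in D4. The A3 arrays did not overlap wt or D4. A3 was 1.44-fold above wt (0.53 ± 0.13 SE, limma adjusted p 0.00387), and D4 was 1.36-fold below A3 (-0.45 ± 0.13 SE, adjusted p 0.0465). The call against A3 was lost under 4 of 6 other settings (limma adjusted p up to 0.164) and in 5 of 7 fits with an array left out, those without A3 replicate 1 or 4 or D4 replicate 1, 2 or 5 (0.07 to 0.212). D4 differed from wt by 0.08, with a 95% interval of -0.17 to 0.32. In treated tumours no pair of lines was called for GSTP1. The treated A3 arrays were the most scattered, at 10.09, 10.14, 9.72 and 9.35, with an SD of 0.37.

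MGST1, a trimer that also reduces lipid hydroperoxides, was the only member called higher in a resistant clone than in wt. It was not called higher than in A3. Untreated, it read 7.82, 8.07, 7.83 and 8.02 in wt, 8.22, 7.95 and 7.96 in A3, 8.24, 8.44, 8.26 and 8.26 in D3, and 7.91, 8.26, 8.15 and 8.13 in D4. All D3 arrays lay above all wt and A3 arrays. D3 was 1.29-fold above wt (0.36 ± 0.10 SE, limma adjusted p 0.00808), and the difference from A3 was not called (0.26, adjusted p 0.248). Untreated D4 was not called different from wt (0.18). After CPA it was D4 that was high, at 8.44, 8.28, 8.40 and 8.44, above 7.95, 7.90, 8.0 and 7.95 in wt, by 1.36-fold (0.44 ± 0.10 SE, limma adjusted p 0.00173). The difference of treated D4 from treated A3 (0.22) was not called. The treated D3 arrays spread from 7.73 to 8.33. D4 was called above them (0.31 ± 0.10 SE, adjusted p 0.0475), a call that was lost with only those groups in the fit, with the replicate block, after a further quantile normalization and without any 1 of D3 replicate 4 or 5 or D4 replicate 1, 2, 4 or 5.

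The comparison of D4 with A3 in untreated tumours rests on few arrays. The median difference over the 10 members was -0.41, against 0.00 over all genes, and 9 of the 10 lay below 0. The 10 include GSTA1, GSTM1 and GSTM5, which lay at or near background. The arrays did not overlap for 6 members (GSTM1, GSTM3, GSTM4, GSTM5, GSTP1 and GSTT1), against 9.62% of all genes. Of these, GSTM5 lay under the background mark in all 8 groups and GSTM1 in 5. The lowest A3 and highest D4 arrays were close for GSTM5 (4.825 and 4.796), GSTM1 (5.885 and 5.858) and GSTM4 (7.984 and 7.982). With a fit of only these 2 groups none of the members was called. In the full fit 8 of 10 had an unadjusted p under 0.05, a mark at which the share of all genes was not counted. No called member changed direction when an array was left out. Leaving out A3 replicate 1 ended the call of GSTM3, and A3 replicate 4 those of GSTM4 and GSTT1, each among others.

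Arrays of a group varied in several members at once. Of the 7 members above background, 6 were at their highest in untreated D4 replicate 4 and 4 at their lowest in replicate 5. In untreated A3 all 7 were lowest in replicate 2, by a median of -0.24 from the group mean, and in untreated wt all 7 were highest in replicate 2. The median deviation over all genes lay between -0.02 and 0.03 on all arrays. The part of this variation in the differences between lines was not tested.

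For D3 against A3 only GSTT1 was called, in each condition, where 2.27% of all genes were called untreated (0.970% lower) and 4.55% after CPA (2.99% lower). The median over the members was -0.22 untreated and -0.14 after CPA, with 9 of 10 below 0 in both. Members at or near background (GSTA1, GSTM1 and GSTM5) are among the 10. Against wt 3 members were called in untreated D3, 2 lower and MGST1 higher, where 18.1% of all genes were called, 8.40% lower and 9.69% higher. In untreated D4 it was 4, all lower, where 20.1% were called and 10.9% were lower. After CPA 4 were lower in D3 (16.4% of all genes called, 10.1% lower), and in D4 3 were lower and 1 was higher (15.1% called, 7.59% lower and 7.54% higher). A3 differed from wt in 2 members untreated, both higher, where 18.5% of all genes were called and 10.1% were higher. After CPA it differed in GSTM2, which was lower, where 16.3% were called and 9.60% were lower. Between D4 and D3 no member was called untreated (0.323% of all genes, limma), and MGST1 was higher after CPA (8.05% called, 4.56% higher). Untreated, 4 of the 10 had an unadjusted p under 0.05, a mark at which the share of all genes was not counted.

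Arrays of 2 lines did not overlap at all for a number of members. The counts are over all members, with GSTA1, GSTM1 and GSTM5 at or near background. Untreated, this held for 3 members in A3 against wt (24.2% of all genes), 6 in D3 against wt (22.1%), 2 in D4 against wt (18.4%), 4 in D3 against A3 (12.3%) and 0 in D4 against D3 (4.68%). After CPA it held for 2 in A3 against wt (19.3%), 4 in D3 against wt (24.2%), 5 in D4 against wt (20.7%), 3 in D3 against A3 (9.65%), 4 in D4 against A3 (18.4%) and 0 in D4 against D3 (22.3%). Between treated and control arrays of 1 line it held for 0 members in wt (2.15%), A3 (5.04%) and D3 (9.60%).

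The means over listed markers of other cells differed between lines in some of these comparisons. The mean over the 4 measured of 5 hepatocyte markers was 5.56 to 5.66 over the untreated wt arrays, 5.66 to 5.70 in A3, 5.46 to 5.52 in D3 and 5.27 to 5.39 in D4, so both resistant clones lay below both sensitive lines, as GSTT1 did in most arrays. After CPA it was 5.54 to 5.76 in wt, 5.52 to 5.62 in A3, 5.43 to 5.72 in D3 and 5.30 to 5.47 in D4, where D3 overlapped the sensitive lines. Of these markers ALB, TTR (5.555) and FGB (5.807) had means under the background mark of 5.89, and SERPINA1 had a mean of 7.01. Group means varied most for FGB (5.262 to 6.21) and SERPINA1 (6.648 to 7.414). They varied little for ALB (3.621 to 3.864) and TTR (5.444 to 5.665). The mean over the 5 endothelial markers was highest in wt, at 6.40 to 6.62 untreated, against 6.17 to 6.32 in A3, 6.26 to 6.38 in D3 and 6.21 to 6.45 in D4. After CPA it was 6.43 to 6.56 in wt, 6.32 to 6.43 in A3, 6.30 to 6.54 in D3 and 6.23 to 6.28 in D4, and among these markers KDR had group means of 7.80 to 9.54. The endothelial markers CDH5 (5.615), VWF (5.025) and TEK (5.517) had means under the background mark. GSTM2 was likewise highest in wt. The mean over the 6 fibroblast markers was 6.83 to 7.02 in untreated A3, 7.07 to 7.17 in D3, 6.89 to 7.18 in D4 and 7.13 to 7.23 in wt. The epithelial mean was 9.24 to 9.32 in untreated A3, 9.39 to 9.56 in D3, 9.27 to 9.61 in D4 and 9.43 to 9.64 in wt. Which cells expressed these markers was not tested, nor was their part in the transferase differences.

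CPA was then set against control within each line, to ask whether treatment moved the transferases. No member was called in wt, A3, D3 or D4 by limma, where 0.0462%, 0.352%, 0.231% and 1.03% of all genes were called. At an unadjusted p under 0.05 there were 0, 0, 2 and 2 members, and the share of all genes at that mark was not counted. The largest differences were GSTA4 in D4 (0.32 ± 0.10 SE, adjusted p 0.104), GSTA1 in D3 (0.31 ± 0.12 SE, adjusted p 0.318, at background level) and MGST1 in D4 (0.28 ± 0.10 SE, adjusted p 0.12). For GSTA4 and MGST1 all treated D4 arrays lay above all untreated ones, a lack of overlap that 9.97% of all genes showed in D4. The 95% intervals of the 40 effects reached from -0.44 to 0.56, and for GSTT1 from -0.31 to 0.19, and changes within these bounds cannot be told from none here.

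**Figure D3:**
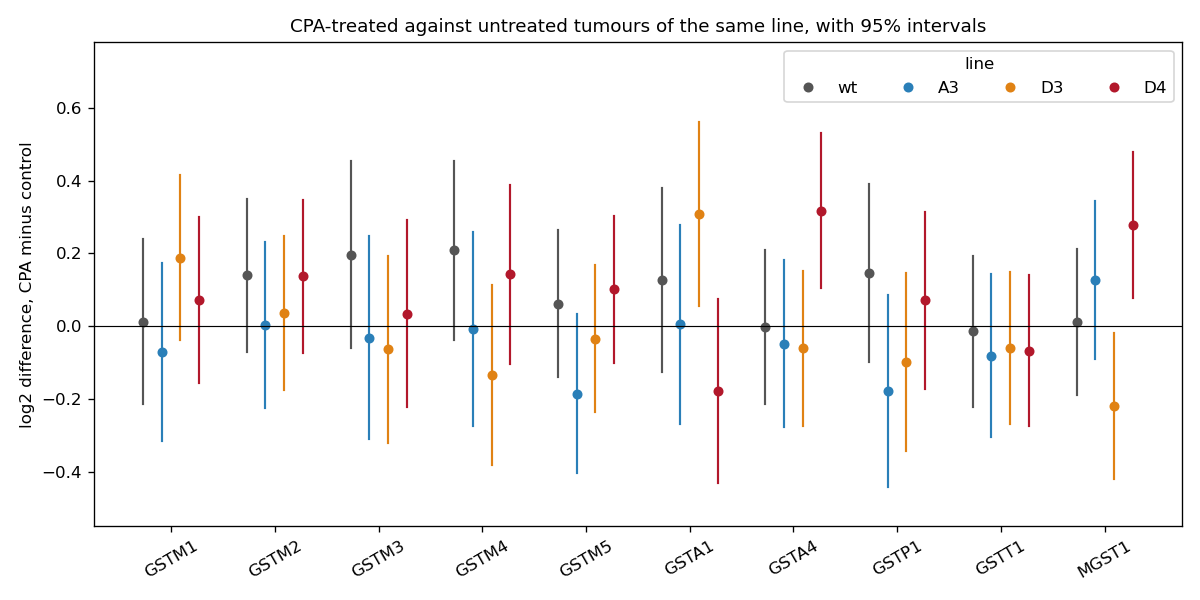
Log2 difference between CPA-treated and untreated tumours of the same line for the 10 transferases, with 95% intervals not adjusted for the number of tests. None of the 40 differences was called; those of GSTA4 and MGST1 in D4 lie at 0.32 and 0.28.

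The CPA effect was also compared between lines. A test of any difference among the 4 lines called no member, with adjusted p-values from 0.33 for MGST1 to 0.989 for GSTT1, and no gene at all (limma; share of all genes called 0%). The smallest unadjusted p of a member was 0.0099, for MGST1 (limma). The effect in the resistant lines minus that in the sensitive lines ran from -0.10 for GSTM3 to 0.16 for GSTM1, and none was called (limma adjusted p 0.999 each; 0.00578% of all genes called), with 0 at an unadjusted p under 0.05. MGST1 differed by -0.22 in D3 and 0.28 in D4 after CPA, and neither was called.

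Over the 8 group means, GSTM2 ranged over 0.79, GSTM3 over 0.69, GSTM4 over 0.59 and GSTT1 over 0.55 on the log2 scale, against a median range of 0.32 and a 90th percentile of 0.61 over all genes. Members varied together to different degrees. As a description over 8 groups that share arrays with every comparison above, GSTM3 and GSTT1 correlated at 0.91, GSTA4 and GSTM2 at 0.89, GSTM2 and GSTM3 at 0.86 and GSTM4 and GSTP1 at 0.86, whereas GSTM2 and GSTP1 correlated at -0.04 and MGST1 and GSTM2 at -0.70. The genes whose group means were most like those of GSTM2 were C3orf62 (0.99), ZFPM2 (0.97) and TSPAN8 (0.96), picked from 2919 genes with a range of at least 0.5. Those most like GSTM3 were ITPKB (0.98), SEPTIN6 (0.97) and TMEM98 (0.97). For GSTM4 they were TRHDE (0.96), PARD6G (0.95) and ELMOD1 (0.95), and for GSTT1 SLC5A12, HCLS1 and IL1RAPL1 (0.97 each). The genes were picked for these values.

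The measured genes among the 5 on each side of a member were read as well. Of the neighbours of the mu class cluster, AMPD2, GNAT2, EPS8L3, MIR197 and CSF1, none was called in an untreated comparison of lines, and CSF1 was called in D3 against wt (0.22) and in D4 against D3 (-0.27) after CPA. Near MGST1 on chromosome 12, DERA, an aldolase of deoxyribose phosphate, and STRAP, a receptor-associated protein, were higher than wt in untreated D3 (0.27 and 0.37), untreated D4 (0.34 and 0.25) and treated D4 (0.39 and 0.22). The nearer neighbours SLC15A5 and LMO3 were not called in any of these comparisons, and DERA was also higher in treated A3 than in wt (0.29), where MGST1 was not called. Of the 6 measured neighbours of GSTP1 only the complex I subunit NDUFV1 was called in untreated A3 against wt (0.36 ± 0.08 SE, limma adjusted p 0.00224); the others lay between -0.16 for NUDT8 and 0.08 for CDK2AP2. CDK2AP2 was lower in treated D4 than in wt (-0.37), A3 (-0.28) and D3 (-0.28), and CABP2 was higher in treated D3 than in wt (0.37) and lower in treated D4 than in D3 (-0.41). Near GSTA4 the kinase gene CILK1 was higher in treated D3 than in wt (0.24) and A3 (0.33) and in treated D4 than in wt (0.36) and A3 (0.45), while GSTA4 was lower in treated D3 than in wt. Over all 17 measured neighbours, 1 was called in untreated A3 against wt, 2 in untreated D3 and 2 in untreated D4, where 18.5%, 18.1% and 20.1% of all genes were called. After CPA 4 were called in D4 against wt (15.1% of all genes) and 2 in D4 against A3 (12.4%). Neighbours of GSTT1 were not analysed here.

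The rest of the pathway was read from lists written with earlier results of these data known. Other transferases and their relatives, of which 11 of 16 were measured, held 0 called genes for D4 against A3 untreated and 1 higher with 2 lower after CPA, where 3.77% and 12.4% of all genes were called. GSTCD was higher in treated D4 (0.49 ± 0.10 SE, limma adjusted p 0.000791), while the omega class gene GSTO2 (-0.40) and the prostaglandin synthase PTGES (-0.25) were lower. In untreated A3 the omega class gene GSTO1 was above wt (0.42 ± 0.12 SE, limma adjusted p 0.0109), as GSTP1 and GSTM4 were. The median of the list for D4 against A3 was -0.08 in both conditions.

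Of 13 measured genes of glutathione synthesis, supply and turnover, CTH alone was called in untreated D4 against A3 and was higher (0.45), and after CPA 5 were higher and 0 lower, where 12.4% of all genes were called, with a list median of 0.16 against -0.05 over all genes. After CPA the 3 with the smallest p were CTH, which makes cysteine from cystathionine (0.59 ± 0.12 SE, limma adjusted p 0.000952), CHAC2 (0.46), an enzyme that breaks glutathione down, and SLC3A2 (0.30), the heavy chain of the cystine importer. Against wt 9 of the 13 were higher in untreated D3 (18.1% of all genes called, 9.69% higher) and 7 in treated D4 (15.1% called, 7.54% higher). In untreated D4 7 were called, 6 higher and 1 lower, where 20.1% of all genes were called and 10.9% were lower. In untreated A3 3 were higher and 2 lower than in wt (18.5% of all genes called, 10.1% higher). In treated A3 0 were higher and 2 lower (16.3% called, 9.60% lower). In treated D3 against wt 0 were called by limma (16.4% of all genes). GCLM, the regulatory subunit of the first enzyme of glutathione synthesis, was higher in untreated A3 (0.46), D3 (0.36) and D4 (0.32). SLC7A11, the light chain of the cystine importer, was lower than wt in untreated A3 (-0.63), D3 (-0.46) and D4 (-0.61), and after CPA it was higher in D4 than in A3 (0.65).

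**Figure D4:**
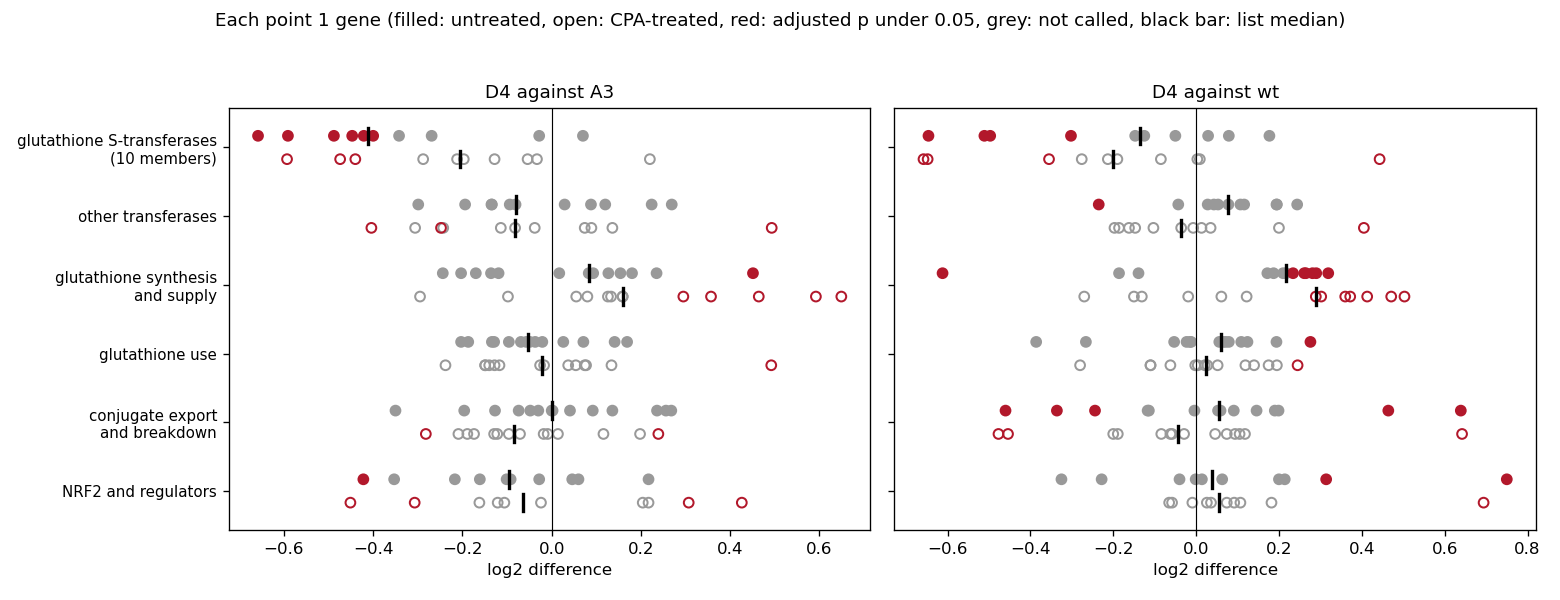
Log2 differences of single genes in D4 against A3 (left) and D4 against wt (right), by list; filled points are untreated, open points CPA-treated, red where called, grey where not, and black bars are list medians. Most transferases lie left of 0 against A3, with medians of -0.41 untreated and -0.20 after CPA, and the genes of glutathione synthesis and supply lie mostly right of 0 against wt, with medians of 0.22 and 0.29.

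Among 14 genes of glutathione use, such as peroxidases and glutaredoxins, 0 were called for D4 against A3 untreated and 1 after CPA (GPX8, 0.49). Of 14 measured genes of conjugate export and breakdown, 0 were called untreated, and after CPA LAP3 was higher (0.24) and GGT7 lower (-0.28). The shares of all genes called in these comparisons were 3.77% and 12.4%. Against wt the exporter ABCC3 was lower in all 3 untreated clones (-0.73 in A3, -0.54 in D3 and -0.46 in D4) and the peptidase ANPEP was higher (0.99, 0.84 and 0.64), with limma adjusted p-values of 0.000598 or less. Of 10 measured genes of NRF2 and its regulators, the target NQO1 was higher than wt in untreated A3 (0.53), D3 (0.65) and D4 (0.75). HMOX1 was called higher in untreated A3 (0.67) and D4 (0.31), SRXN1 in A3 (0.44) and D3 (0.42), and TXNRD1 in A3 alone (0.42). The list held 5 higher genes and 1 lower in untreated A3 against wt, where 18.5% of all genes were called. It held 3 higher in D3 (18.1%) and 2 in D4 (20.1%), with 0 lower in either. For D4 against A3 the list held 1 lower gene untreated, SRXN1 (-0.42), and 2 higher with 2 lower after CPA. The 2 lower were HMOX1 (-0.45) and MAFF (-0.31), and NQO1 (0.31) was 1 of the 2 higher. NFE2L2, which encodes NRF2 itself, was not called between D4 and A3 untreated (0.05, adjusted p 0.913) and was higher in D4 after CPA (0.43, adjusted p 0.0197).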

How the data were processed

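RNA of PC3 xenografts was labelled with biotin and read on Affymetrix Human Gene 1.0 ST arrays. The authors deposited log2 values, for which the submitters' processing notes name RMA; its software and annotation are not given in the sources used here, and 1 of 32 planned arrays was left out by the submitters as an outlier. RMA gives all arrays a common distribution, so shifts of all genes are removed. Of 23989 probe sets 17624 carried 1 symbol, 411 several and 5954 none; the brightest set per symbol left 17314 genes. Each transferase had 1 such set.

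Contrasts were taken by limma (version 3.58.1, R 4.3.3) from 1 fit of 8 group means over 31 arrays with 23 residual degrees of freedom. Adjusted p-values follow Benjamini-Hochberg over all genes, with calls under 0.05. Alternatives were fits restricted to the groups of a contrast, a block for the replicate number, a further quantile normalization, median centring, leaving out the dimmest 30% of genes, the mean over probe sets, and each array left out in turn. Named were all members called, up to 3 called genes of a list per comparison described with the smallest p, and the 3 genes most like each of the 4 members with the widest range; some list genes and neighbours were named after their values were seen. Members and lists were chosen with earlier results of these data known.

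Whether the replicate numbers pair arrays was checked by the correlation of deviations from group means. Over 84 same-numbered pairs of arrays of different groups it ran from -0.66 to 0.60 with a median of 0.05. Over 336 differently numbered pairs it ran from -0.49 to 0.62 with a median of -0.01. Of these 123 were over 0.1, against 35 of the 84 same-numbered pairs. Every same-numbered pair was over 0.1 for D3 against wt (0.16 to 0.41) and D4 against D3 (0.21 to 0.43), both untreated, and in no other comparison. So few pairs cannot decide whether the numbers pair the arrays. All main values are unpaired, and the block is given only as an alternative.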

Additional observations from a re-analysis of the deposited data

Results flagged for a closer look

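In each group of 4 arrays, every member was checked for 1 array far from the other 3, by Dixon's criterion at the 95% level. Of 70 such sets 3 met it, and chance alone gives about 1 in 20. GSTM4 read 7.73 in CPA-treated wt replicate 5, below the others at 8.09 to 8.11. GSTP1 read 9.58 in untreated D3 replicate 1, below 9.84 to 9.87. MGST1 read 8.44 in untreated D3 replicate 2, above 8.24 to 8.26.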

How the results depend on the processing

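No called difference of a member changed sign under any alternative: of 411 recomputed values for 30 called differences, 341 kept their call and 70 lost it. Fitting only the groups compared gave 0 members for D4 against A3 and 0 for D3 against A3, both untreated, 2 for untreated D4 against wt and 0 for treated D4 against D3. For treated D3 against A3 the count was 2 after a further quantile normalization, 2 with median centring and 2 without the dimmest 30% of genes, a filter that leaves 7 of the 10 members. For treated D4 against D3 it was 0 with the replicate block and 0 after a further quantile normalization. The replicate block called 27 differences in all against 30. For D3 against wt and D4 against D3, both untreated, it ended only the call of GSTT1 in D3 against wt. Leaving out each array in turn gave 1 to 7 members for untreated D4 against A3, 0 to 1 for D3 against A3, 1 to 2 for A3 against wt, 2 to 3 for D3 against wt, 3 to 4 for D4 against wt and 0 to 0 for D4 against D3. After CPA the ranges were 2 to 4, 1 to 2, 0 to 2, 2 to 4, 3 to 4 and 0 to 2 in the same order. The comparisons of CPA with control and of the CPA effect between lines stayed at 0 members in every setting run. Single arrays are named here only for the larger changes in proportion to the count. Smaller changes, as in untreated D3 and D4 against wt and treated D4 against wt and A3, are given by their ranges alone. Untreated D4 against A3 is given with its result. For untreated A3 against wt the array was A3 replicate 1 or 4, each leaving 1 member. For untreated D3 against A3 it was A3 replicate 4 or D3 replicate 1, each leaving 0. For treated D3 against wt it was wt or D3 replicate 3, each leaving 2. For treated A3 against wt it was wt replicate 3 or A3 replicate 2, each leaving 0, or A3 replicate 4, leaving 2, and for treated D3 against A3 it was A3 replicate 3, leaving 2. For treated D4 against D3 it was any of 7 of the 8 arrays: D3 replicate 4 or 5 or any D4 array, each leaving 0, or D3 replicate 2, leaving 2. The cause of these changes was not tested, beyond fewer arrays in the fit. Signal over background limits GSTA1, GSTM1 and GSTM5.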
